A study of Mus musculus with 661 samples.

Results

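The genes described here are 9 regulators of the cell cycle and of the p53 pathway: Cdkn1a, Cdkn1b, Cdkn2a, Cdkn2b, Cdkn2c, Cdkn2d, Trp53, Mdm2 and Ccng1. They were chosen by symbol, for their known roles as cyclin-dependent kinase inhibitors, as p53 itself and as p53 targets, and all 9 had a row in a count table of 45808 genes. Their counts were read in single cells of mouse bone marrow stroma, sorted into 6 populations from young and old animals, both cell by cell and summed over the cells of a group.

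Inhibitors of cyclin-dependent kinases hold cells out of the division cycle. Cip/Kip proteins bind complexes of cyclins and kinases, whereas INK4 proteins bind the kinases Cdk4 and Cdk6 and keep D-type cyclins from them. The transcription factor p53 is stabilised by DNA damage and other stress and induces Cdkn1a, Mdm2 and Ccng1, and several of these genes, Cdkn1a and Cdkn2a among them, serve as markers of senescent cells in ageing tissue.

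All mice were wild-type C57BL/6 animals of both sexes, young at 6 to 12 weeks (about 2 months) and old at 18 months or more (most about 24 months). Stromal cells negative for Ter119 and CD45 were sorted from the endosteum as MSC-S (CD31 negative, Sca-1 and CD51 positive), mOPr (multipotent osteoprogenitors, Sca-1 negative, CD51 and PDGFRα positive, LepR negative), OPr (osteoprogenitors, PDGFRα and LepR negative) and AEC (arteriolar endothelial cells, CD31 positive, Sca-1 high, CD105 low). MSC-L (CD51, PDGFRα and LepR positive) and SEC (sinusoidal endothelial cells, Sca-1 low, CD105 high) came from the central marrow. Each cell was made into its own library by a modified Smart-Seq2 protocol, which carries no molecular identifiers. The labels name no animal for any cell, so the cells of 1 age and 1 population were treated as 1 sample. There were therefore no replicates and no tests, and the intervals given (95%, exact Poisson for a level, exact conditional binomial for a ratio, Clopper-Pearson for a share of cells) cover counting error alone, in which reads copied by PCR are not independent molecules.

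Counts of nuclear genes per cell ran from 57517 to 1488549, with a median of 416359. Young and old MSC-L were 53 and 58 cells with median depths of 463538 and 352562 counts, and MSC-S were 59 cells at each age with medians of 602470 and 693396. OPr were 44 young and 29 old cells (medians 686077 and 775426), and mOPr were 26 and 26 (medians 516984 and 444242). AEC were 84 and 82 cells (medians 409992 and 414261), and SEC were 70 and 71 (medians 314844 and 302201). Of all cells, 654 had at least 100000 counts over all genes and at most 20% mitochondrial counts, the limits stated in the study's methods, and 7 did not. Levels are given as CPM of the summed group, scaled to its nuclear gene counts, and 3 counts, the floor used for a count of 0, corresponded to between 0.0766 CPM (old MSC-S) and 0.24 CPM (old mOPr).

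Library numbers in the sample titles fell into 3 ranges with wide gaps between them, range 1 with 170 cells, range 2 with 303 and range 3 with 188. The mesenchymal populations lay in ranges 1 and 2, all SEC in range 3, and AEC in all 3 ranges, so that SEC could be set beside AEC of range 3 alone. The value in each range was used as the spread of a level. SEC thus have a single value and no spread, and where they stand beside a mesenchymal population, population and library-number range cannot be told apart.

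Marker genes were read in each sorted population to check its label. Lepr stood at 3160 CPM in young and 3239 CPM in old MSC-L, Ly6a (the gene of Sca-1) at 912 and 1304 CPM in MSC-S and at 1494 and 1736 CPM in AEC, and Stab2, a sinusoidal scavenger receptor, at 7177 and 5875 CPM in SEC. Cdh5, an endothelial cadherin, was at 564.7 CPM or more in AEC and SEC of both ages and at 1.53 CPM or less in every mesenchymal group. The endosteal sorts of old animals departed from their labels: summed over the 6 MSC-L markers, OPr had 5499.9 CPM when young and 22679.7 CPM when old, and mOPr had 1263 and 22004 CPM, Cxcl12 being the most abundant gene in all 4 groups. Of the old OPr cells, 10 of 29 lay in the authors' clusters M1 and M2, which hold most MSC-L, against 3 of 44 young OPr cells, and the same held for 14 of 26 old against 2 of 26 young mOPr cells.

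Markers of blood cells were read from 3 lists in every population. In old OPr, 8 cells carried at least 7 of 15 hematopoietic markers at 10 CPM or more, and the 15 genes summed to 5753 CPM there (Srgn highest at 1861 CPM, none at 0) against 178 CPM in young OPr, where Cd52 and Ly86 were at 0. The 7 neutrophil markers summed to 4.77 CPM in young OPr, with Elane at 0, and to 6436 CPM in old OPr, with S100a9 highest at 4041 CPM and Ltf, Elane and Mpo at 0. One old SEC cell carried at least 7 of the 15 hematopoietic markers, and results that rest on these cells are given with and without them. The 6 erythroid and megakaryocyte markers summed to 26.5 CPM in young and 345 CPM in old MSC-L (Pf4 highest in old cells at 235 CPM, none at 0 at either age). They summed to 57.05 and 422 CPM in SEC (Itga2b highest in old cells at 378 CPM). In OPr they summed to 11.1 and 174 CPM (Hbb-bs highest in old cells at 96.03 CPM, with Hba-a1 and Hbb-bs among the markers at 0 in young cells). In MSC-S, mOPr and AEC the sum was 23.1 CPM or less at both ages. Outside OPr, the 15 hematopoietic markers summed to 48.98 CPM in young and 183 CPM in old MSC-L, 28.4 and 111 CPM in MSC-S (Srgn at 24.9 and 101 CPM, Tyrobp and Cd52 at 0 at both ages), 18.99 and 47.8 CPM in mOPr, 467 and 435 CPM in AEC and 458 and 628 CPM in SEC. Neutrophil markers were at 4.53 and 25.03 CPM in AEC and at 10.5 and 44.6 CPM in SEC, and at 9.54 CPM or less in both ages of MSC-L, MSC-S and mOPr. No cell of MSC-L, MSC-S, mOPr or AEC carried more than 5 of the 15 hematopoietic markers at 10 CPM or more. The 6 osteoprogenitor markers were lower in old cells of MSC-L (8833 and 3602 CPM), MSC-S (2547 and 1335 CPM), OPr (4135 and 1682 CPM) and SEC (1065 and 266 CPM). The part of these markers in the age differences was not tested beyond leaving out the hematopoietic-marker cells. Mesenchymal markers (at least 7 of 10) were found in 2 young and 1 old AEC and in 4 young and 3 old SEC.

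With all cells summed and levels set per kilobase of exon, Cdkn1a was the most abundant of the 9 transcripts, at 136 CPM per kb. Cdkn2d followed at 24.5, Trp53 at 16.97, Mdm2 at 14.3, Ccng1 at 10.6, Cdkn1b at 8.29, Cdkn2c at 5.45, Cdkn2b at 1.62 and Cdkn2a at 0.0697 CPM per kb. This order differed between groups: Cdkn2d lay under Trp53 in young MSC-S, young OPr, old mOPr and SEC of both ages. At least 1 count was found in 504 cells for Cdkn1a (76.2%, interval 72.8% to 79.4%), in 416 for Mdm2, 408 for Trp53, 311 for Cdkn1b, 258 for Ccng1, 198 for Cdkn2d, 136 for Cdkn2c, 37 for Cdkn2b and 6 for Cdkn2a. So 7 of the 9 genes were read in at least 20.6% of cells. The pair that sits side by side on chromosome 4, Cdkn2a and Cdkn2b, was read in only 6 and 37 cells at this depth. Cdkn1a came first in every group but MSC-L, where it had 8.21 CPM per kb in young cells, below Cdkn2d (28.3), Trp53 (13.4), Cdkn1b (11.05), Mdm2 (10.1) and Ccng1 (9.18). A median cell carried between 3 and 5 of the 9 genes, depending on the group, and no cell carried more than 8.

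**Figure D1:**
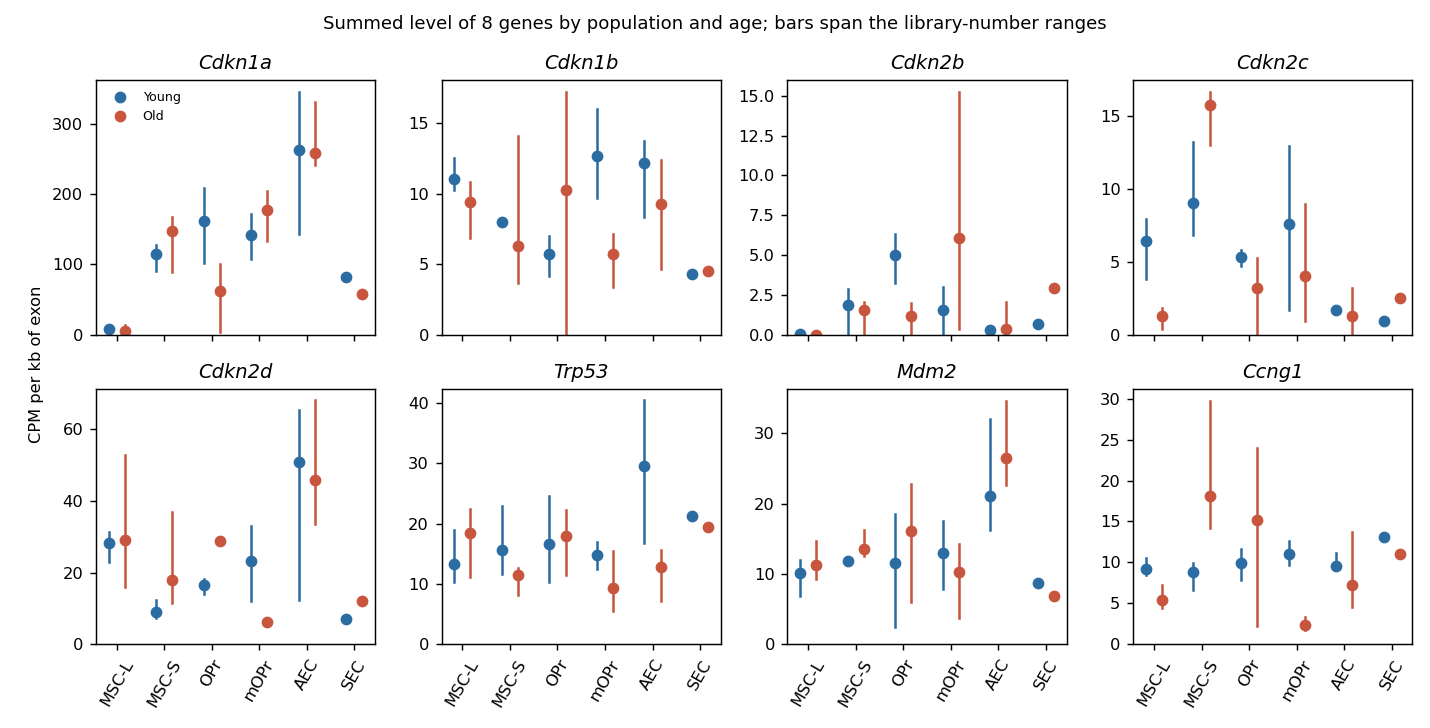
Summed level of 8 genes (Cdkn2a left out) in CPM per kilobase of exon (vertical axes, each starting at 0) for the 6 sorted populations, young in blue and old in red. Points are all cells of a group and bars span its library-number ranges. Cdkn1a reached 263 CPM per kb in young AEC and 8.21 in young MSC-L.

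Old and young cells of each population were compared next, to ask which of the 9 genes differ with age. A gene was tested where it had at least 100 counts over both ages in at least 5 cells, and it counted as past the fold at a log2 ratio (of CPM + 1) of 1 or more, or of -1 or less. In MSC-L, 7 of the 9 genes passed the filter, 0 rose and 1 fell (Cdkn2c), where 13.86% of all 13143 tested genes rose and 11.53% fell. In MSC-S, 8 passed, 1 rose (Ccng1) and 0 fell, against 8.647% and 11.09% of 13381 genes.

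In OPr, 8 passed, 0 rose and 2 fell (Cdkn1a and Cdkn2b), against 25.59% and 19.64% of 13418 genes. In mOPr, 7 passed, 0 rose and 3 fell (Cdkn1b, Cdkn2d and Ccng1), against 24.71% and 19.80% of 11237 genes. The AEC comparison had 7 that passed, with 0 up and 1 down (Trp53), against 9.329% and 11.74% of 14042 genes. The SEC comparison had 8, with 2 up (Cdkn2b and Cdkn2c) and 0 down, against 13.10% and 7.564% of 12982 genes. At most 3 of the 9 genes passed the fold in any population, and none passed it in the same direction in more than 1 population. How often this holds among all tested genes was not counted, so it describes the 9 genes alone.

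The median log2 ratio of the genes that passed was -0.22 in MSC-L, 0.28 in MSC-S, 0.30 in OPr, -0.85 in mOPr, -0.34 in AEC and -0.02 in SEC. Over all tested genes it was 0.01, -0.06, 0.14, 0.11, -0.03 and 0.05 in the same order. Scaling by median-of-ratios factors moved every ratio by -0.17 in OPr and by -0.13 in mOPr, and by less than 0.1 in the other 4 populations.

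**Figure D2:**
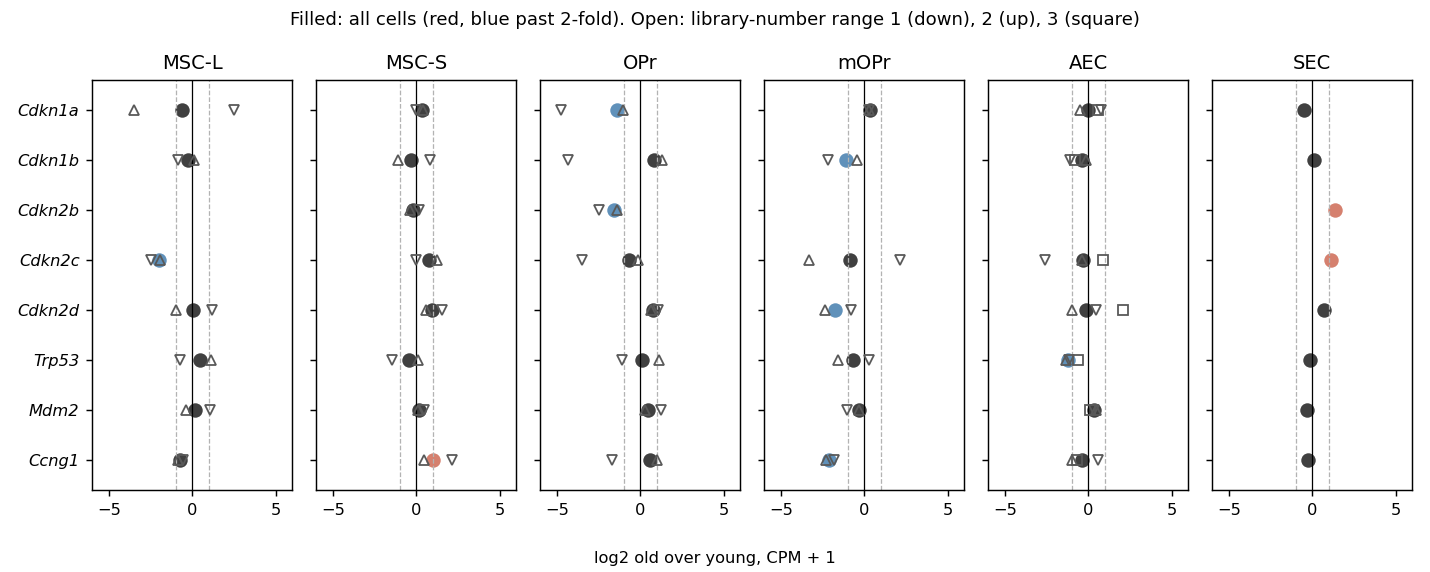
Log2 ratio of old over young (horizontal axis, CPM + 1) for 8 genes in 6 sorted populations. Filled points are all cells (red at 1 or more, blue at -1 or less, grey-black between, blank where the filter was not passed), open symbols the library-number ranges 1 (downward triangle), 2 (upward triangle) and 3 (square), and dashed lines the 2-fold limits. Ccng1 in mOPr lies at -2.11 and Trp53 in AEC at -1.19, with all their range values on the same side of 0.

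Cdkn1a encodes p21, the Cip/Kip inhibitor that p53 induces. In young cells the order of its levels was AEC (934 CPM), OPr (577), mOPr (502), MSC-S (407), SEC (294) and MSC-L (29.2, interval 26.98 to 31.5). Ranges overlapped between neighbours from AEC down to MSC-S, and MSC-L (highest range 41.1) lay apart from MSC-S (lowest range 321). The single value of SEC fell between them. In old cells the order was AEC (917), mOPr (629.5), MSC-S (525), OPr (219.7), SEC (205) and MSC-L (18.9), and the ranges of AEC did not overlap with those of mOPr, while those of MSC-L and OPr did overlap.

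Central-marrow MSC-L thus carried the least Cdkn1a of the 6 populations at both ages. Set against MSC-S, young MSC-L were 13.9-fold lower (log2 -3.80, interval -3.92 to -3.69) and old MSC-L 27.8-fold lower, and the log2 ratio was -5.19 and -3.43 in ranges 1 and 2 of the young cells and -2.69 and -7.30 in those of the old. In 30 of 53 young and 31 of 58 old MSC-L no read of the gene was found, and 1 cell held 57.7% of the young total and 64.9% of the old. The immediate early and heat shock genes, which can be induced when tissue is dissociated, were lowest in the same population: the 14 genes summed to 4275 CPM in young MSC-L and to between 17752.5 CPM (SEC) and 31225 CPM (mOPr) in the other young populations, Fos being highest in all 6. Their part in the Cdkn1a difference was not tested.

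In OPr, Cdkn1a fell with age, from 577 CPM (interval 568 to 586) to 219.7 CPM (213 to 226), which is 2.63-fold lower (log2 -1.39, interval -1.44 to -1.35). The median cell went from 341 to 11.7 CPM, and a count was found in 38 of 44 young and 19 of 29 old cells. Both library-number ranges were lower in old cells (12.8 against 365 CPM in range 1, 359 against 741 CPM in range 2), and the ranges of the ages did not overlap.

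The fall was smaller among cells chosen by cluster. Old OPr cells in clusters M1 and M2 had 36.02 CPM of Cdkn1a, and the 19 in clusters M3 to M16 had 369.5 CPM against 644 CPM in 41 young cells, a log2 ratio of -0.80 that no longer passed the fold. In cells grouped by the authors' clusters M3 to M5 in place of the sort, young and old cells had 611 and 591 CPM. Without the 8 hematopoietic-marker cells, which held 19.7% of the old counts, the old level was 235 CPM.

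In mOPr the level was 502 CPM young and 629.5 CPM old, while the share of cells with a count went from 26 of 26 to 19 of 26 and the median cell from 395 to 121 CPM. Outside M1 and M2, the 24 young mOPr cells had 519 CPM and the 12 old ones 1085 CPM (log2 1.06). The median cell there differed less, with 435 CPM young and 494 CPM old. Cells low and high in Cdkn1a were found at both ages, from 1.20 to 1922 CPM in young mOPr and from 0 to 4142 CPM in old mOPr. Of all old mOPr counts, 1 cell held 26.8%. The 14 old mOPr cells in M1 and M2 had 219.8 CPM.

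Fewer SEC had a count of Cdkn1a in old animals, at a summed level that differed by less than the fold. The old sort also differed in make-up: summed AEC markers were at 314 CPM in young and 1046 CPM in old SEC, Ly6a at 208 and 528 CPM and summed SEC markers at 17944.5 and 13479.5 CPM, and cluster E7 held 61 young and 44 old cells. A count was found in 56 of 70 young SEC (interval 68.7% to 88.6%) and in 38 of 71 old SEC (53.5%, interval 41.3% to 65.5%). The median cell went from 109.99 to 3.29 CPM, whereas the summed levels were 294 and 205 CPM (log2 -0.52). Thinned to 100000 counts per cell, 53 of 70 young and 35 of 70 old cells had a count, so the gap between the ages was of the same size at equal depth. In AEC, by contrast, the shares were 90.5% and 87.8%, the levels 934 and 917 CPM, and the ranges disagreed in sign (0.76, -0.51 and 0.60).

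The same thinning, which left out 7 shallow cells (2 old MSC-L, 1 young and 2 old OPr, 1 young AEC and 1 old SEC), gave Cdkn1a shares of 24.5% and 28.6% in MSC-L, where all counts gave 43.4% and 46.6%. OPr went from 86.4% and 65.5% to 76.7% and 51.9% of young and old cells, and MSC-S stood at 86.4% at both ages after thinning and 93.2% before. MSC-S levels were 407 and 525 CPM (log2 0.37). MSC-L of the 2 ages had 29.2 and 18.9 CPM, with ranges that went opposite ways (log2 2.49 and -3.48), and no direction can be given for them.

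**Figure D3:**
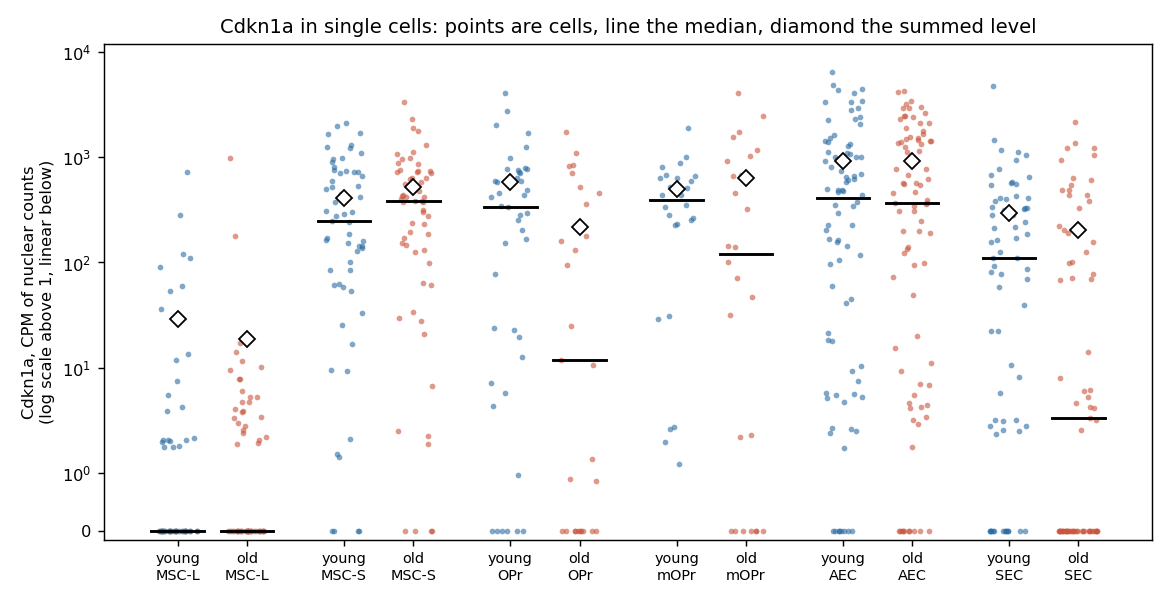
Cdkn1a in each cell (vertical axis, CPM of nuclear gene counts, log scale above 1 and linear below) by sorted population and age, young in blue and old in red. Lines are medians over cells and diamonds the summed level of the group. The median of old SEC lies at 3.29 CPM and that of old OPr at 11.7 CPM, far under their summed levels, and both MSC-L medians are at 0.

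Across the authors' clusters, which were drawn from these same cells and which in the endothelium used Cdkn1a among their guide genes, its level ran from 19.3 CPM in M1 (86 cells) and 94.1 CPM in M2 (50 cells) to 1044 CPM in E4 (59 cells) and 1614 CPM in E2 (8 cells). Of the clusters of 10 or more cells, every cell had a count in M3 (16 cells), M9 (10 cells, all of them old), M15 (17 cells, all young) and M16 (36 cells). M16 had a median of 392 CPM and a highest cell of 969 CPM, M15 a median of 509.9 CPM and a highest cell of 981 CPM, and young and old cells of M16 had 324 and 448 CPM. Sinusoidal cluster E7 had 286 CPM, with a count in 76 of 105 cells.

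Grouped by cluster, Cdkn1a in MSC-L-like cells (M1 and M2) was 15.4 CPM young and 61.3 CPM old, a log2 ratio of 1.99 (interval 1.83 to 2.15), where the sorted MSC-L had 29.2 and 18.9 CPM. The old MSC-L-like cells included the 24 that were sorted as OPr or mOPr, and most of the old counts lay in those 24. Old M1 and M2 had 574 and 1583 counts, of which cells sorted as OPr held 346 and cells sorted as mOPr 1445. The median cell was at 0 at both ages in M1 and at 2.30 CPM young and 2.67 CPM old in M2. In AEC-like cells (E3 and E4) the levels were 981 and 936 CPM, and in SEC-like cells (E7) 306 and 256 CPM.

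Cdkn1b encodes p27, the other Cip/Kip inhibitor of the set. It was found at low levels. In young cells mOPr (57.7 CPM), AEC (55.3) and MSC-L (50.3) stood highest, with overlapping ranges. MSC-S (36.4) lay below MSC-L and above OPr in both ranges, and SEC (19.5) came last, inside the ranges of OPr (26.1). In old cells all neighbours overlapped, from OPr at 46.8 CPM to SEC at 20.7 CPM.

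In mOPr, Cdkn1b fell from 57.7 CPM (interval 53.9 to 61.8) to 26.1 CPM (23.4 to 29.1), 2.21-fold (log2 -1.14, interval -1.33 to -0.96). It was found in 14 young and 9 old cells of 26, and the ranges of the ages did not overlap (72.7 and 43.99 against 15.5 and 32.7 CPM). After thinning the ratio was -0.75 and in range 2 alone -0.42, both short of the fold. In OPr, 1 cell held 790 of the old counts of Cdkn1b, of which there were 1000, and the ratio was -4.32 in range 1 and 1.28 in range 2.

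AEC had 55.3 CPM young and 42.2 CPM old, lower in old cells in all 3 ranges (-1.08, -0.15 and -0.81), and a count was found in 47 of 84 and 35 of 82 cells. In cluster E4 the levels were 76.7 and 34.5 CPM (log2 -1.13) and the median cell went from 50.2 CPM to 0, while in E3 they were 41.7 and 29.5 CPM. MSC-L (50.3 and 42.98 CPM), MSC-S (36.4 and 28.7 CPM) and SEC (19.5 and 20.7 CPM) differed by less than the fold.

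Cdkn2a, an INK4 locus whose row joins the transcripts of p16INK4a and p19ARF, had 25 counts in 6 cells (0.908% of all, interval 0.334% to 1.97%). In 1 young OPr cell of cluster M15 there were 18 of them. The other 5 cells had 3 counts (old MSC-S) or 1 count each (young MSC-S, young mOPr, young AEC and old AEC), and all 6 cells belonged to library-number range 2. Neither MSC-L nor SEC had a count at either age, nor had old OPr or old mOPr. At a limit of 3 counts, 0 counts in these groups allow a level of up to 0.132 and 0.154 CPM in young and old MSC-L, 0.137 and 0.145 CPM in SEC, 0.14 CPM in old OPr and 0.24 CPM in old mOPr, and at a limit of 3 cells they allow a share of cells with a count of up to 5.66% and 5.17% in MSC-L, 4.29% and 4.23% in SEC, 10.3% in old OPr and 11.5% in old mOPr. The Clopper-Pearson intervals of these shares reach further, to 6.72% and 6.16% in MSC-L, 5.13% and 5.06% in SEC, 11.9% in old OPr and 13.2% in old mOPr. A change of Cdkn2a with age was thus not detectable at this depth, and no fold is given.

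Cdkn2b, its neighbour on chromosome 4, encodes the INK4 inhibitor p15. It had 688 counts in 37 cells, of which 26 were mesenchymal and 11 endothelial. Both cells with counts of the pair at once were young: the OPr cell with 18 Cdkn2a counts had 69 of Cdkn2b, and the MSC-S cell with 1 had 25. Among young populations Cdkn2b was highest in OPr (6.92 CPM, interval 6.00 to 7.94), above MSC-S (2.58) in both ranges, and in MSC-L it had 1 count in young and 0 in old cells.

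In OPr it fell to 1.64 CPM (interval 1.14 to 2.28), 4.23-fold lower (log2 -2.08, interval -2.64 to -1.56, and -1.59 with 1 CPM added), with 9 of 44 young and 3 of 29 old cells positive. One old cell of M5 held 31 of the 35 old counts, and without the top cell of each age the ratio was -2.25. Range 1 had 4.54 CPM in young and 0 in old cells, and range 2 had 8.76 and 2.74 CPM. Outside M1 and M2, the 41 young OPr cells had 7.72 CPM and the 19 old ones 2.97 CPM. Grouped by clusters M3 to M5, however, the levels were 6.32 and 7.09 CPM (log2 0.14 with 1 CPM added), because 1 old mOPr cell of cluster M5 with 101 counts then joined them and held 71.6% of the old total.

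The rise of Cdkn2b in SEC came from 1 cell. Summed, SEC had 0.958 CPM young and 4.10 CPM old (log2 1.38 with 1 CPM added), but a single old cell of E7 held 80 of the 85 counts (94.1%), and without the top cell of each age the ratio was -0.04. It was found in 3 of 70 young and 5 of 71 old SEC. Old mOPr had the highest level of all groups, 8.41 CPM, but with 101 of 105 counts in 1 cell (96.2%), and the gene did not pass the filter there. MSC-S had 2.58 and 2.17 CPM, with 2 young and 7 old cells positive of 59.

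Cdkn2c encodes p18, an INK4 inhibitor found in many quiescent and differentiating cells. In young cells MSC-S (24.4 CPM), mOPr (20.4), MSC-L (17.4) and OPr (14.4) each overlapped in range with the next in this order, while AEC (4.62) lay below OPr without overlap. SEC had 2.55 CPM, against 4.33 CPM in AEC of range 3. In old cells MSC-S (42.3 CPM) stood above mOPr (10.8), OPr (8.56), MSC-L (3.54) and AEC (3.44) without overlap, and SEC had 6.71 CPM.

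In MSC-L, Cdkn2c fell 4.91-fold, from 17.4 CPM (interval 15.7 to 19.2) to 3.54 CPM (2.75 to 4.48), a log2 ratio of -2.29 (interval -2.69 to -1.92) or -2.02 with 1 CPM added. A count was found in 13 of 53 young and 4 of 58 old cells, 1 of which held 84.1% of the old counts, and without the top cell of each age the ratio was -2.82. Both ranges were lower in old cells (10.4 to 1.02 CPM in range 1, 21.3 to 4.91 CPM in range 2). The erythroid and megakaryocyte markers were higher in old MSC-L (26.5 and 345 CPM), and their part in this fall was not tested. In MSC-S the levels were 24.4 and 42.3 CPM (log2 0.80, under the fold), with 19 young and 35 old cells positive of 59 (32.2% and 59.3%, or 28.8% and 54.2% when thinned) and range values of -0.02 and 1.24.

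Old MSC-L had less Cdkn2c than old MSC-S, 12.0-fold with the cell that held 84.1% of the old MSC-L counts included (log2 -3.58, interval -3.95 to -3.23), where the young populations were 1.403-fold apart. In MSC-L-like cells of M1 and M2 the levels were 14.6 and 7.13 CPM (log2 -0.94 with 1 CPM added), short of the fold. The 2 clusters went opposite ways, from 17.8 to 5.88 CPM in M1 (-1.45, 42 young and 44 old cells) and from 1.399 to 9.16 CPM in M2 (2.08, 14 young and 36 old cells, with 7 and 123 counts). Clusters M12 (68.5 CPM) and M14 (66.7 CPM) were highest, and in M9, the cluster of old cells, 9 of 10 cells had a count.

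In SEC, Cdkn2c rose from 2.55 CPM (interval 1.93 to 3.32) to 6.71 CPM (5.64 to 7.92), log2 1.39 or 1.12 with 1 CPM added, although 8 cells of each age were positive (of 70 and 71). The ratio was 1.04 or more under every alternative tried, and inside E7 the levels were 0.81 and 7.58 CPM. The erythroid and megakaryocyte markers, at 57.05 and 422 CPM in young and old SEC, were higher in old cells too, and their part in the rise was not tested. In AEC the values, 4.62 and 3.44 CPM, and in OPr, 14.4 and 8.56 CPM, differed by less than the fold. In mOPr, with 20.4 and 10.8 CPM, 4 young and 3 old cells held all counts and the ranges had opposite signs (2.17 and -3.32).

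Cdkn2d encodes p19, the INK4 inhibitor that differs from the others in being made in S phase. It was highest in AEC, with 79.9 CPM young and 72.1 CPM old, although range 3 had 19.3 CPM young and 85.9 CPM old. Below AEC came MSC-L (44.6), mOPr (36.4) and OPr (25.8), each overlapping in range with the next, then MSC-S (14.3), apart from OPr. SEC had 11.2 CPM, against 19.3 CPM in AEC of range 3. In old cells mOPr (9.85 CPM) came last, below MSC-S (28.1) without overlap, and SEC had 18.8 CPM.

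In mOPr, Cdkn2d fell 3.70-fold, from 36.4 CPM (interval 33.4 to 39.6) to 9.85 CPM (8.19 to 11.8), log2 -1.89 (interval -2.18 to -1.60). Positive cells were 7 young and 5 old of 26, and 1 young cell held 59.1% of the young counts. In range 1 alone the ratio was -0.79. Outside M1 and M2, the 24 young mOPr cells had 35.98 CPM and the 12 old ones 15.4 CPM. In MSC-S it was 14.3 CPM young and 28.1 CPM old (0.93 with 1 CPM added, just under the fold), higher in old cells in both ranges (1.54 and 0.59). Scaled by median-of-ratios factors or averaged over cells, MSC-S had a value of 1.00 or 1.01 and passed.

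In OPr the levels were 25.8 and 45.3 CPM, but the 8 hematopoietic-marker cells held 54.1% of the old counts, and without them old OPr had 27.7 CPM. MSC-L had 44.6 and 45.7 CPM with fewer positive cells in old animals (18 of 53 and 10 of 58). SEC had 11.2 and 18.8 CPM, under the fold, and 5.18 and 22.1 CPM in cluster E7, where the ratio was 1.90 with 1 CPM added.

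For Trp53, the gene of p53, young cells went from AEC (119 CPM) through SEC (85.9), OPr (66.96), MSC-S (63.1) and mOPr (60.1) to MSC-L (54.2). The ranges of every pair of neighbours overlapped. The same was true of old cells, which went from SEC (78.5 CPM), MSC-L (74.6) and OPr (72.6) to AEC (51.6), MSC-S (46.6) and mOPr (37.7). AEC thus stood first among young and 4th among old populations.

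In AEC, Trp53 fell 2.31-fold with age, from 119 CPM (interval 116 to 123) to 51.6 CPM (49.3 to 54.1), log2 -1.21 (interval -1.29 to -1.13). All 3 ranges were lower in old cells: 67.6 to 29.2 CPM in range 1, 164 to 62.9 CPM in range 2 and 73.7 to 46.8 CPM in range 3, where the ratio of -0.64 was short of the fold. No range of old AEC reached the lowest range of young AEC. A count was found in 57 of 84 young and 41 of 82 old cells (44 of 83 and 31 of 82 when thinned), and the median cell went from 25.0 to 0.77 CPM. Markers of other cells differed in the same sort: the 6 SEC markers summed to 1979 CPM in young and 1189 CPM in old AEC (Il6st highest, none at 0), with Stab2 at 216.8 and 9.35 CPM, and Ibsp, an osteoprogenitor marker, was at 111 and 1.38 CPM. The 6 osteoprogenitor markers together had 588 and 788 CPM, the 10 mesenchymal markers 622 and 1190 CPM and the 6 AEC markers 2712 and 2978 CPM. Their part in the fall of Trp53 was not tested.

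Among the clusters that hold AEC, E4 had 188 CPM young and 56.7 CPM old (log2 -1.71 with 1 CPM added), and E6 had 270.8 and 72.6 CPM (-1.88). E5 had 42.1 and 19.6 CPM (-1.06), whereas E3 had 49.3 and 47.1 CPM (-0.07). Of the old counts of Trp53, 1 cell held 75.3% in E5 and 1 cell 42.4% in E4. In AEC-like cells of E3 and E4 together the levels were 121 and 51.6 CPM. SEC had 85.9 and 78.5 CPM, with 51 of 70 and 42 of 71 cells positive.

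In the mesenchymal populations Trp53 differed by less than the fold, and the ranges had opposite signs in all 4: MSC-L 54.2 and 74.6 CPM, MSC-S 63.1 and 46.6 CPM, OPr 66.96 and 72.6 CPM, mOPr 60.1 and 37.7 CPM. A row for the pseudogene Trp53-ps had 297 counts in 129 cells, and whether reads were shared between it and Trp53 was not tested.

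Mdm2, the ubiquitin ligase that marks p53 for degradation and is itself a p53 target, was also highest in AEC. Young AEC had 107 CPM, followed by mOPr (65.8), MSC-S (60.3), OPr (58.5), MSC-L (51.2) and SEC (44.2), and old AEC had 134 CPM, followed by OPr (81.7), MSC-S (68.8), MSC-L (57.1), mOPr (52.1) and SEC (34.9). Neighbours overlapped throughout at both ages.

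Between ages, no population passed the fold in Mdm2. AEC were higher in old cells in all 3 ranges (log2 0.37, 0.47 and 0.11) while Trp53 was lower in them, with counts of Mdm2 in 64 of 84 young and 57 of 82 old cells. MSC-S were higher in both ranges (0.46 and 0.08). In OPr, 48.7% of the old counts lay in the 8 hematopoietic-marker cells, and without them the old level was 55.99 CPM. In mOPr outside M1 and M2 the levels were 69.1 and 18.4 CPM, a log2 ratio of -1.85, against -0.33 in all mOPr.

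Ccng1 encodes cyclin G1, a p53 target that binds a subunit of protein phosphatase 2A. Its young levels were the flattest of the set: mOPr (38.9 CPM), OPr (35.1), AEC (33.7), MSC-L (32.2) and MSC-S (30.9) overlapped, and SEC had 46.1 CPM, against 39.1 CPM in AEC of range 3. In old cells MSC-S (63.6 CPM) and OPr (53.5) came first, and MSC-L (19.1) and mOPr (8.25) came last and apart from each other.

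Ccng1 passed the fold in opposite directions in a pair of mesenchymal populations. In MSC-S it rose 2.06-fold, from 30.9 CPM (interval 29.1 to 32.8) to 63.6 CPM (61.2 to 66.2), log2 1.04 (interval 0.94 to 1.15), with ranges of 23.2 and 35.1 CPM in young and 104.5 and 49.9 CPM in old cells and 32 and 38 cells positive of 59. In range 2 alone the ratio was 0.50 and in MSC-S-like cells (M6 to M16) 0.57, neither past the fold. The 15 hematopoietic markers were at 28.4 and 111 CPM in these young and old MSC-S, and their part in the rise was not tested.

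In mOPr it fell 4.72-fold, from 38.9 CPM (interval 35.8 to 42.3) to 8.25 CPM (6.73 to 10.0), log2 -2.24 (interval -2.56 to -1.93). Positive cells were 10 young and 6 old of 26, both ranges were lower (44.5 to 11.7 CPM and 33.9 to 6.09 CPM), and the ratio stayed at -1.79 or lower under every alternative tried. MSC-L had 32.2 and 19.1 CPM, lower in both ranges without overlap and under the fold. In OPr, with 35.1 and 53.5 CPM, 1 old cell held 40.8% of the counts and the ranges had opposite signs.

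Populations of 1 age were also compared directly. Young MSC-L against young MSC-S had 7 of the 9 genes past the filter, of which 1 was higher (Cdkn2d, 44.6 against 14.3 CPM) and 1 lower (Cdkn1a), where 28.76% of 13645 genes were higher and 16.79% lower. Young OPr against young MSC-S had 8, with 1 higher (Cdkn2b) and 0 lower, where 19.34% and 16.98% of 13756 genes were. Young AEC against young SEC within range 3 had 6, with 2 higher (Cdkn1a and Mdm2) and 0 lower, where 17.27% and 24.90% of 11908 genes were. In old cells, MSC-L against MSC-S had 0 higher and 3 lower of 7, with Cdkn2d short of the fold (log2 0.68). Old OPr against old MSC-S had 0 higher and 2 lower of 8, and old AEC against old SEC 3 and 0 of 8. Shares of all genes were not counted for the old comparisons.

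The endothelial pair differed in Cdkn1a and Mdm2. Within range 3, young AEC had 774 CPM of Cdkn1a against 294 in SEC (2.63-fold, log2 1.396, interval 1.34 to 1.45) and 163 CPM of Mdm2 against 44.2 (3.68-fold). Old AEC had 1176 against 205 CPM of Cdkn1a (5.74-fold), 176.0 against 34.9 CPM of Mdm2 (5.05-fold) and 85.9 against 18.8 CPM of Cdkn2d. Trp53 itself was 73.7 against 85.9 CPM in young and 46.8 against 78.5 CPM in old cells, so the population with more Cdkn1a and Mdm2 had no more Trp53.

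Other genes of the pathway were read from lists chosen by function. Each count of list genes that rose and fell is to be read against the shares of all tested genes: 13.86% and 11.53% in MSC-L, 8.647% and 11.09% in MSC-S, 25.59% and 19.64% in OPr, 24.71% and 19.80% in mOPr, 9.329% and 11.74% in AEC and 13.10% and 7.564% in SEC. Of 20 further p53 targets, in MSC-L 14 were tested, 2 rose and 5 fell (median log2 -0.80), and in MSC-S all 20 were tested, 5 rose and 2 fell (0.28). OPr had 17 tested, 2 up and 3 down (-0.25), mOPr 14, 3 up and 5 down (0.31), AEC 20, 4 up and 1 down (0.29), and SEC 17, 1 up and 3 down (-0.20). Both directions were found in every population, and MSC-L alone had a list median further than 0.5 from 0.

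Several targets named by rule moved with or against the members. In MSC-S, where Ccng1 rose, Zmat3, an RNA-binding p53 target, went from 9.72 to 28.2 CPM and Rrm2b, a ribonucleotide reductase subunit, from 25.96 to 11.5 CPM. In OPr, where Cdkn1a fell, the nuclease gene Aen went from 34.5 to 2.71 CPM, the death receptor gene Tnfrsf10b from 18.9 to 2.15 CPM and Phlda3 from 25.7 to 70.7 CPM. In mOPr, Rrm2b went from 22.2 to 1.602 CPM, Trp53inp1 from 79.5 to 18.9 CPM and the kinase gene Plk2 from 37.6 to 147 CPM. In SEC, the death receptor gene Fas went from 9.99 to 45.2 CPM and Rrm2b from 13.2 to 5.501 CPM. In MSC-L, Dcxr fell from 38.4 to 11.95 CPM and Trp53inp1 from 59.98 to 28.5 CPM.

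Of 17 regulators of p53, 1 rose and 1 fell of 16 tested in MSC-L, 0 and 2 of 14 in MSC-S, 1 and 0 of 15 in OPr, 3 and 2 of 13 in mOPr, 0 and 1 of 15 in AEC and 1 and 2 of 14 in SEC, where 13.10% and 7.564% of all genes did. In AEC the one that fell was Atm, the DNA damage kinase, from 36.7 to 13.4 CPM, lower in all 3 ranges as Trp53 was. In MSC-S the deacetylase gene Sirt1 fell from 122 to 46.6 CPM.

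Among 15 cyclins, kinases and pocket proteins, the targets of the inhibitors, 3 rose and 0 fell of 13 in MSC-L, 2 and 0 of 14 in MSC-S, 4 and 4 of 15 in OPr (25.59% and 19.64% of all genes, and 0 and 4 of 11 without its 2 cells with 10 or more proliferation genes), 3 and 4 of 12 in mOPr, 1 and 0 of 14 in AEC and 3 and 1 of 13 in SEC. MSC-S, in which Ccng1 rose, had Ccnd1 at 23.7 and 96.4 CPM, and at 23.4 and 45.4 CPM, short of the fold, without its 3 cells with 10 or more proliferation genes. In OPr, Cdk6, the kinase bound by INK4 proteins, fell from 179.5 to 52.2 CPM beside Cdkn2b, and in SEC it had 33.9 and 93.1 CPM, short of the fold (log2 0.78) without the hematopoietic-marker cell.

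The remaining Cip/Kip gene, Cdkn1c (p57), and Ccng2, the relative of Ccng1, formed a list of 2. Cdkn1c fell in OPr, from 295 to 90.9 CPM, as Cdkn1a did. Ccng2 fell in MSC-L (65.6 to 14.3 CPM), MSC-S (35.1 to 16.6 CPM, short of the fold at -0.98 without the 3 cells with 10 or more proliferation genes) and SEC (86.9 to 35.95 CPM) and rose in mOPr (27.4 to 64.4 CPM), the opposite of Ccng1 in MSC-S and in mOPr. Of the list, 2 rose in mOPr and 0 in the other 5 populations.

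Of 7 regulators of p27, 0 rose and 0 fell in MSC-L, OPr and SEC (7 tested in each), 1 and 2 of 7 in MSC-S, 1 and 3 of 6 in mOPr and 0 and 1 of 7 in AEC. In mOPr, where Cdkn1b fell, its activator Foxo1 fell from 169 to 51.98 CPM. Cul1, part of the ligase that degrades the p27 protein, rose from 120.2 to 301 CPM. Clusters M1 and M2 held 14 old and 2 young mOPr cells, and a link of either gene to the fall of Cdkn1b was not tested. Of 10 repressors of the INK4 locus, all tested in each population, 1 rose and 1 fell in MSC-L, 1 and 1 in MSC-S, 3 and 2 in OPr, 5 and 1 in mOPr, 0 and 0 in AEC and 3 and 0 in SEC. The Polycomb gene Ezh2 fell in MSC-S from 29.4 to 6.84 CPM and rose in OPr from 24.9 to 73.4 CPM, with Cdkn2a at or below 3 counts in both old groups.

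Of the 14 immediate early and heat shock genes, 2 rose and 3 fell in MSC-L, 2 and 0 in MSC-S, 2 and 2 in OPr, 0 and 1 in mOPr, 0 and 0 in AEC and 2 and 0 in SEC. In OPr, Ier2 (679.9 to 272 CPM) and Dusp1 (2541 to 1178 CPM, and to 555 CPM without the hematopoietic-marker cells) fell beside Cdkn1a. Of 10 secretory and other senescence genes, 1 rose and 2 fell of 7 tested in MSC-L, 3 and 1 of 10 in MSC-S, 5 and 3 of 9 in OPr (25.59% and 19.64% of all genes), 5 and 1 of 9 in mOPr, 0 and 2 of 8 in AEC and 2 and 1 of 8 in SEC. In MSC-S, Il6 rose from 32.5 to 307 CPM and Igfbp3 from 1.36 to 127 CPM, and the collagenase gene Mmp13 fell from 233 to 36.1 CPM, while Cdkn1a stood at 407 and 525 CPM there.

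Few cells carried many proliferation genes. At least 10 of 20 were found at 10 CPM or more in 7 cells: 1 old MSC-L, 2 young and 1 old MSC-S, 1 young and 1 old OPr and 1 young AEC. Of the 20 genes, 7 rose and 0 fell of 11 tested in MSC-L, 3 and 8 of 17 in MSC-S, 6 and 4 of 14 in OPr, 1 and 1 of 4 in mOPr, 1 and 8 of 15 in AEC and 2 and 0 of 8 in SEC. The 1 old MSC-L cell of the 7 carried 19 of the 20 genes. Without the 7 cells, 0 rose and 1 fell of 5 tested in MSC-L, 3 and 1 of 9 in MSC-S, 2 and 6 of 10 in OPr and 2 and 2 of 9 in AEC, so the counts in these populations depended on 1 to 3 cells each. Other lists moved as well without these cells. In OPr, where 25.03% of all genes then rose and 21.68% fell, p53 regulators had 0 up and 1 down of 14, cyclins, kinases and pocket proteins 0 and 4 of 11 and p27 regulators 1 and 1 of 7. In MSC-S (8.839% and 11.38% of all genes) cyclins, kinases and pocket proteins had 1 and 1 of 14, the list of Cdkn1c and Ccng2 0 and 0 of 2 and secretory and other senescence genes 4 and 1 of 10. Immediate early and heat shock genes had 1 and 3 of 13 in MSC-L (13.68% and 12.21% of all genes), and p27 regulators 0 and 2 of 7 in AEC (9.402% and 11.63%). The other lists of these populations had the same counts as with the cells.

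The lists were counted again in OPr without the 8 hematopoietic-marker cells, where 26.38% of 12980 genes rose and 18.40% fell. Of p53 targets 1 rose and 4 fell of 16 tested, of p53 regulators 7 and 0 of 15, of cyclins, kinases and pocket proteins 6 and 4 of 15, of proliferation genes 7 and 4 of 14 and of p27 regulators 2 and 0 of 7. INK4 locus repressors had 3 and 2 of 10, immediate early and heat shock genes 1 and 3 of 14, secretory and other senescence genes 5 and 3 of 9, and the list of Cdkn1c and Ccng2 0 and 1 of 2. In SEC without the 1 hematopoietic-marker cell, 12.24% of 12852 genes rose and 7.796% fell. There, 1 of the secretory and other senescence genes rose and 2 fell of 8, 2 of the cyclins, kinases and pocket proteins rose and 1 fell of 13, and the counts of the other 7 lists were those given with the cell.

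The genes whose levels over the 12 groups were much like those of a member were found by Pearson r of log2 (CPM + 1) among 12123 genes. Cdkn2a and Cdkn2b were left out. The 12 points share populations, sorts and library-number ranges, so r describes the pattern and no more. For Cdkn1a they were Ier3 (r = 0.98), Klf4 (0.97) and Tpt1 (0.97), an immediate early gene, a transcription factor gene and a translation-linked gene, and Ier3 had its lowest level, 5.03 CPM, in old MSC-L as Cdkn1a did. For Cdkn1b there was Mex3a (0.89), for Cdkn2c Glt8d2, Fam189b and Reep5 (each 0.91), for Cdkn2d Chml (0.90), for Trp53 Keap1 (0.82) and Bms1 (0.82), for Mdm2 Azin1 (0.89) and for Ccng1 Ptcd1 (0.90) and Wdr6 (0.87).

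The members other than Cdkn2a and Cdkn2b were also compared with each other. The highest r was that of Cdkn1b with Cdkn2d (0.78), then Cdkn2d with Mdm2 (0.73) and Cdkn1b with Mdm2 (0.62). The lowest was that of Cdkn2c with Trp53 (-0.52). Trp53 had r of -0.06 with Cdkn1a, 0.05 with Mdm2 and 0.39 with Ccng1. The levels of Trp53 were thus nearly unrelated to those of Cdkn1a and Mdm2 over the groups.

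Single cells were compared within each group as well. Over 12 groups of 26 to 84 cells, Spearman's rho of Trp53 with Cdkn1a had a median of 0.03 (-0.22 to 0.25) and was above 0 in 10 groups, and that of Trp53 with Mdm2 had a median of 0.11 (-0.15 to 0.31) and was above 0 in 9. The median of Cdkn1a with Mdm2 was 0.15 (-0.25 to 0.31) and with the summed 20 p53 targets 0.27 (-0.05 to 0.55). With the summed immediate early genes the median was 0.22 (-0.04 to 0.54), and with the nuclear counts of the cell 0.02. Cells of a group share a sort and an age, counts were sparse, and rho of this size is a description only.

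Promoters of the members were searched for the p53 consensus, since 3 members are textbook p53 targets. RefSeq windows from 250 bases before to 50 after each start (GRCm38.p6) were found for all 9 genes. The named consensus of p53, a pair of 10-base decamers with a spacer of up to 13 bases, was matched in 24 of 32851 windows (0.0731%), and Cdkn1a was among them. The match began 73 bases before the start on the plus strand, at chr17:29090906-29090937, and is shown with its decamers in capitals.

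Cdkn1a: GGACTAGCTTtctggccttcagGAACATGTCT

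A single decamer was matched in 2745 windows (8.36%), 4 of them those of Mdm2, Ccng1, Cdkn2d and Trp53, and none was matched in the windows of Cdkn1b, Cdkn2a, Cdkn2b and Cdkn2c. The consensus reads the same on both strands. The decamers lie on the minus strand at chr10:117710935-117710944 (Mdm2), chr11:40755462-40755471 (Ccng1) and chr9:21291302-21291311 (Cdkn2d), and on the plus strand at chr11:69580284-69580293 (Trp53). Another window of Cdkn1a, at chr17:29093519-29093818, had no match. Sites outside the windows were not searched, so these decamers need not be the sites through which p53 acts on a target.

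Mdm2: GAACTTGCCT

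Ccng1: GGGCAAGCCT

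Cdkn2d: GGGCTTGCCT

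Trp53: GGACTTGCCC

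A match is a description of these windows and says nothing of binding by p53 in these cells. The gene bodies lie at chr17:29090976-29100727 (Cdkn1a), chr6:134920401-134925513 (Cdkn1b), chr4:89274471-89294653 (Cdkn2a), chr4:89306299-89311039 (Cdkn2b), chr4:109660876-109667189 (Cdkn2c), chr9:21288410-21291407 (Cdkn2d), chr11:69580359-69591873 (Trp53), chr10:117688875-117710758 (Mdm2) and chr11:40748552-40755311 (Ccng1), and Cdkn2a, Cdkn2b and Cdkn2c thus share chromosome 4. Reads were counted without strand, and 1 exon of Cdkn1a overlaps an exon of AC167363.2 on the opposite strand by 273 bases, while no other member has such an overlap in GENCODE M21.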

How the data were processed

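The deposited table, per the labels, holds raw read counts that the authors made by aligning reads to GRCm38.p4 with GSNAP and counting them per gene with HTSeq without strand. Its 46078 rows with 270 repeated symbols were summed to 45771 nuclear and 37 mitochondrial genes. Here all cells were grouped by age and sorted population as the titles give them, and the authors' cluster labels were taken over. CPM is of nuclear gene counts, a ratio adds 1 CPM to each age, and a gene was tested at 100 or more counts in 5 or more cells. The members and lists were chosen with earlier results of these data known. The rule for named genes took all members and, per list and comparison, up to 4 genes with the largest ratio past the fold. These had to be found in at least 25% of the cells of an age. They also had to be alike in sign across the library-number ranges that hold 5 cells or more per age. The rule further took the 3 genes most like each member, Cdkn2a and Cdkn2b left out. Not every gene that this rule names is reported here. List genes and marker genes are protein-coding genes of known function: p53 targets, p53 regulators, cyclins, kinases and pocket proteins, other inhibitor family genes, proliferation genes, p27 regulators, INK4 locus repressors, immediate early and heat shock genes, and secretory and other senescence genes. Alternatives were mean CPM over cells, median-of-ratios factors, a pseudocount of 0.1 CPM, no filter, thinning to 100000 counts, each range alone, leaving out the top cell, hematopoietic-marker cells or endothelial cells with mesenchymal markers, and clusters in place of sorts. Leaving out OPr and mOPr cells of M1 and M2, and counting the lists without hematopoietic-marker cells or cells with 10 or more proliferation genes, were added after seeing the data. Exon lengths came from GENCODE M21. The scripts ran on Python (3.11.15) with the libraries scipy (1.17.1), numpy (2.4.6), matplotlib (3.10.9) and pandas (2.3.3), and the ratio and its interval were tested on simulated data.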

Additional observations from a re-analysis of the deposited data

Results flagged for a closer look

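In 3 genes the change with age passed the fold in opposite directions in different populations. The sign was the same in both library-number ranges of the mesenchymal populations, and SEC lie in 1 range alone. Each population and age is 1 sample, and the difference between populations was not tested. How many of all tested genes passed the fold in opposite directions was not counted.

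Ccng1, cyclin G1, had a log2 ratio of 1.02 in MSC-S and of -2.11 in mOPr. Cdkn2c, the gene of p18, had -2.02 in MSC-L and 1.12 in SEC. Cdkn2b, the gene of p15, had -1.59 in OPr and 1.38 in SEC, the last of which rested on 1 old cell.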

How the results depend on the processing

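The number of the 9 genes past the fold differed between alternatives, both where other cells were chosen and where the arithmetic was changed. The share of all tested genes past the fold was not counted under the alternatives given here. These counts thus have no background and do not set the 9 genes apart from others. In MSC-L it was 1, and 4 and 3 in library-number ranges 1 and 2 alone. In MSC-S it was 1, and 2 with mean CPM over cells, 2 with median-of-ratios factors, 3 and 2 in ranges 1 and 2, and 0 by clusters. In OPr it was 2, and 4 with mean CPM, 5 after thinning, 8 and 5 in ranges 1 and 2, 3 without the top cells, 0 by clusters and 4 without the cells of M1 and M2, the last chosen after seeing the data. In mOPr it was 3, and 4 with no filter, 2 after thinning, 4 in each of ranges 1 and 2, and 5 without the cells of M1 and M2. In AEC it was 1, and 3 in range 1. In SEC it was 2, 1 with mean CPM, 1 without the top cells, 3 without cells with mesenchymal markers and 3 by clusters. A change of sign occurred for 2 ratios past the fold: Cdkn2b in OPr became 0.14 by clusters, and Cdkn2b in SEC became -0.035 without the top cell of each age, which held 94.1% of the old counts. Why the others moved was not tested.

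Of the other ratios under the alternatives, 190 moved by no more than their counting interval reaches to a side on average, and 198 by more. Of 8 leads of the highest young population, 2 moved by less than a limit set from the counts of that population and 6 did not. Of 108 shares of cells after thinning, 92 lay within the interval of the share before thinning and 16 outside. Clusters gave no mOPr group and range 3 holds AEC and SEC alone. No paired analysis was possible because no label names an animal. Depth limits Cdkn2a above all, with 25 counts in 6 cells.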

Other observations

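In cluster E6 (10 young and 14 old cells) Trp53 had 270.8 CPM in young and 72.6 CPM in old cells, and Mdm2 115.7 and 55.3 CPM. In cluster M7 (9 young and 6 old cells) Ccng1 had 19.4 and 157 CPM and Trp53 93.3 and 31.5 CPM. Summed Trp53 was higher in old cells in M16 (15 young and 21 old cells, 24.02 and 61.8 CPM, log2 1.33) and in M2 (14 young and 36 old cells, 27.99 and 73.04 CPM, log2 1.35). The median cell went from 2.86 to 46.8 CPM in M16, but from 3.91 to 1.32 CPM in M2. In M12 (17 young and 10 old cells) Cdkn1a had 318 and 649 CPM and Ccng1 32.5 and 76.01 CPM. Of the counts behind each of these summed values, 1 cell held at most 47.4%. These clusters were drawn from the same cells, their groups are small, and the values are descriptions.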
